A study of Mus musculus with 18 samples.

Results

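Transcription factors that set the choice between staying a B cell and becoming a plasma cell were followed in the 18 deposited transcriptomes, as 10 of the 23420 genes listed in each file. They were chosen by name and for their roles, with earlier results of these data known. The 3 plasma cell drivers were Prdm1, Xbp1 and Irf4, and the 7 B-cell identity factors were Pax5, Bach2, Bcl6, Spib, Ebf1, Ets1 and Id3. All 10 were measured in every library, and none was under 2.62 log2 CPM (CPM are read counts scaled to the same library total), so that no factor entered the tests through 1 group alone.

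The RNA came from B cells of the spleen of MRL/lpr mice, which lack functional Fas through the lpr mutation and develop a disease like lupus. The cells were purified with beads by removing cells that carry CD43, CD4, CD8, CD11b, CD11c or Gr-1, and were then cultured for 4 h. CD43 is carried by plasma cells among others, which limits how many of them the samples can hold. In the first arm, all mice were female and Tlr7-/-, and 5 to 7 weeks old per the labels. Of these, the group called Tlr9het here is labelled Tlr9+/- Tlr7-/-, and the group called Tlr997 is Tlr997 Tlr7-/-, with a TLR9 whose signaling TIR domain is that of TLR7. Both were left unstimulated or given 10 µg/ml of CpG ODN 1826, an oligonucleotide that activates TLR9. In the second arm, all mice were male, of the same ages, and Tlr779 Tlr9-/-, with a TLR7 whose TIR domain is that of TLR9. Their cells were left unstimulated or given 5 µg/ml of CL097, a small molecule that activates TLR7. Each of the 6 groups had 3 libraries, from 3 mice per genotype, whose cells were split between the conditions as far as the protocol tells. The replicate numbers are not said to mark a mouse. The chimeric alleles were made at the endogenous loci by Cas9-guided insertion of the foreign TIR sequence and a stop codon before the original TIR, in MRL/lpr zygotes. The Tlr7WT Tlr9-/- control of the second arm was not analysed here, and between the arms sex, genotype and agonist changed together, so that their effects cannot be told apart. The arms were therefore set side by side and never tested against each other.

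As a check of the labels, Tlr7 was between 2.68 and 4.28 log2 CPM in the 6 Tlr9het libraries, between 4.81 and 5.36 in the 6 Tlr997 libraries and between 6.61 and 7.82 in the 6 Tlr779 libraries. Tlr9 was between 6.93 and 8.08 in all 18, and thus did not set apart the libraries labelled Tlr9-/-. The Tlr779 allele carries the TIR sequence of Tlr9, and the Tlr997 allele that of Tlr7. What reads from these inserts add to the values of Tlr9 and Tlr7 was not tested, so these values are a weak check of the knockouts. The treatment protocol writes the first-arm control as Tlr9-/- Tlr7-/- where the titles write Tlr9+/-. The titles were followed, and every comparison of the genotypes depends on them. The study's text on these libraries also gives Tlr9+/- elsewhere, and the libraries titled Tlr9het answered the TLR9 agonist CpG, with 6649 of 11494 genes called. Xist was at least 8.46 in the 12 libraries of the first arm and at most -1.83 in the 6 of the second, and the Y-linked Ddx3y was the other way round. The files hold no counts, so the depth of each library is unknown. Pearson's r between replicates of a group was 0.944 to 0.989 (11676 genes, which are no replicates). Replicate 3 of unstimulated Tlr997 stood apart, with 0.944 and 0.955 against its partners where all other pairs had at least 0.976, and results that rest on this library are given with and without it. B-cell markers were high throughout (the 6 listed markers summed to between 1748 and 7498 CPM per library). Of T-cell markers, the Cd3 genes, Cd4 and Cd8a were at most 2.72 log2 CPM in each library, while Lck was between 5.46 and 6.62. The 6 macrophage markers summed to between 95.6 and 437 CPM, the 6 T-cell markers found in the files to between 49.8 and 118, the 4 neutrophil markers to between 16.6 and 120, the 4 NK-cell markers to between 1.44 and 11.9 and the 5 erythroid markers to between 108 and 3863. The 4 markers of plasmacytoid dendritic cells, which include Tcf4 of B cells, summed to between 177 and 438.

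The factors form opposing circuits. Ebf1 and Pax5 establish and hold the B-cell program, Bach2 and Bcl6 repress Prdm1, Spib and Ets1 hold B cells back from differentiation, and Id3 binds E proteins and keeps them from DNA. Prdm1 encodes Blimp-1, a repressor that shuts the B-cell program down, Irf4 is needed for Prdm1 induction and plasma cell fate, and Xbp1 drives the secretory apparatus once its mRNA has been spliced by Ern1. TLR stimulation activates NF-κB, which acts on several of these genes, and pushes B cells toward division and, in part, toward antibody secretion.

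Promoter sequence was examined because several of the factors moved together with each agonist. The sequences are from RefSeq (GRCm38.p6), and 9 of the 10 factors matched there with 11 listed starts, with no entry used for Ets1. The 250 bases before the start are given for the 2 identity factors that differed between the genotypes with CpG (Bcl6 and Ebf1, the latter at the second of its listed starts), for the driver with the largest change (Irf4), and for 2 identity factors that fell with each agonist and hold a match (Bach2 and Spib). Each is written 5′ to 3′ on the strand of the gene, and capitals mark motif matches.

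Irf4 (chr13:30748983-30749232, plus strand): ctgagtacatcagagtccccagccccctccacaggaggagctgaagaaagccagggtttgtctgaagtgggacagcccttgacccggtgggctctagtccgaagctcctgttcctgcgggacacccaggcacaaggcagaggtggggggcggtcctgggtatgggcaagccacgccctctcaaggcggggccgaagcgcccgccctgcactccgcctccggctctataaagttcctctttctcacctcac
Bcl6 (chr16:23988853-23989102, minus strand): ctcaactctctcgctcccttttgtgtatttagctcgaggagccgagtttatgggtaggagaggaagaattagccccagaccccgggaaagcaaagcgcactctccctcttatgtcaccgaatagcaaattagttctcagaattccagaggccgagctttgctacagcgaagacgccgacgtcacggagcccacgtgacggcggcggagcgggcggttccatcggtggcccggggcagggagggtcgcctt
Ebf1 (chr11:44619978-44620227, plus strand): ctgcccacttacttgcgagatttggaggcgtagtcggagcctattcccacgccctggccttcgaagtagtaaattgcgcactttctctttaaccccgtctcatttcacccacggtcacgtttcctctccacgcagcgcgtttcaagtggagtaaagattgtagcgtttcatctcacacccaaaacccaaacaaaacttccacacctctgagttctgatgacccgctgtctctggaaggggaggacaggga
Bach2 (chr4:32417185-32417434, plus strand): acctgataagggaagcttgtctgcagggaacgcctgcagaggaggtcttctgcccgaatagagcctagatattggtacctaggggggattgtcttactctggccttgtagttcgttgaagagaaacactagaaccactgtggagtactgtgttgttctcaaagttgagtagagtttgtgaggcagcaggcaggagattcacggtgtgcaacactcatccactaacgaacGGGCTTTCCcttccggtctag
Spib (chr7:44532072-44532321, minus strand): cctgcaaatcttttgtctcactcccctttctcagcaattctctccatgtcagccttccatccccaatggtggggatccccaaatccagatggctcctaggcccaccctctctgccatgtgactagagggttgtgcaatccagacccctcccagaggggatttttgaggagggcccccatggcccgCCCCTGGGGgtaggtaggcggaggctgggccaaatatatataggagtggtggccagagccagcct

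The motifs searched on both strands were κB sites (GGGNNTTCC or GGNNTTTCC), the AP-1 core (TGAGTCA, also the core of sites bound by Bach2 with small Maf proteins), an interferon-response motif (GAAANNGAA, which sites of Irf4 and Blimp-1 share), an Ebf motif (CCCNNGGG), an ETS motif (CCGGAAGT, the kind bound by Ets1) and a Bcl6 motif (TTCCTAGAA). The Bach2 window held GGGCTTTCC, a κB match that begins 21 bases before the start. This listed start lies inside the gene, whose span begins at 32238413, so the window is not that before the 5′ end of the gene. Of all 32851 promoters in the table, 8.36% held a κB match in the same window. The Spib window held 2 overlapping Ebf matches, CCCCTGGG and CCCTGGGG, 65 and 64 bases before the start, against 11.8% of all promoters with at least 1. The first listed start of Ebf1, not printed, had a κB match and an interferon-response match that overlap, and 7.13% of all promoters held the latter. All 250 bases of that window lie in exons annotated for Ebf1 itself. None of the 11 windows held an AP-1, ETS or Bcl6 match, which 4.46%, 2.88% and 0.347% of all promoters did. These letters describe the windows only and show no binding.

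Levels of the factors can be compared with each other only per length of transcript, as log2 CPM per kb of the union of annotated exons. In unstimulated Tlr9het cells, the order on this scale was Spib (mean 8.0), Ets1 (7.67), Irf4 (7.14), Bach2 (5.78), Xbp1 (5.19), Ebf1 (4.81), Id3 (4.51), Bcl6 (3.70), Pax5 (3.70) and Prdm1 (1.42). Spib and Ets1 thus stood at the top and Prdm1 at the bottom, but the order did not part the sides. The driver Irf4 came right after Ets1, and the identity factors Bcl6 and Pax5 stood just above Prdm1. Of the neighbors in this order, only Bcl6 and Pax5 had overlapping libraries. With CpG in the same genotype, Irf4 came first (8.74), before Spib (6.47), Xbp1 (4.68), Bcl6 (4.63), Pax5 (4.24), Bach2 (4.14), Ets1 (4.11), Ebf1 (3.62), Id3 (2.58) and Prdm1 (1.79). The libraries of Xbp1 and Bcl6 overlapped, as did those of Pax5, Bach2 and Ets1. By its mean, Prdm1 remained last in all 6 groups. In Tlr779 with CL097 its libraries (1.40 to 2.38) overlapped those of Id3 (2.10 to 2.41). In Tlr997 with CpG, Ebf1 came after Irf4, Spib and Xbp1 (4.40), while in Tlr9het with CpG 7 factors were above it. In Tlr779 with CL097, Irf4 was also first (8.58), and Ets1 (6.0) and Bach2 (5.21) came after Spib (7.12).

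**Figure D1:**
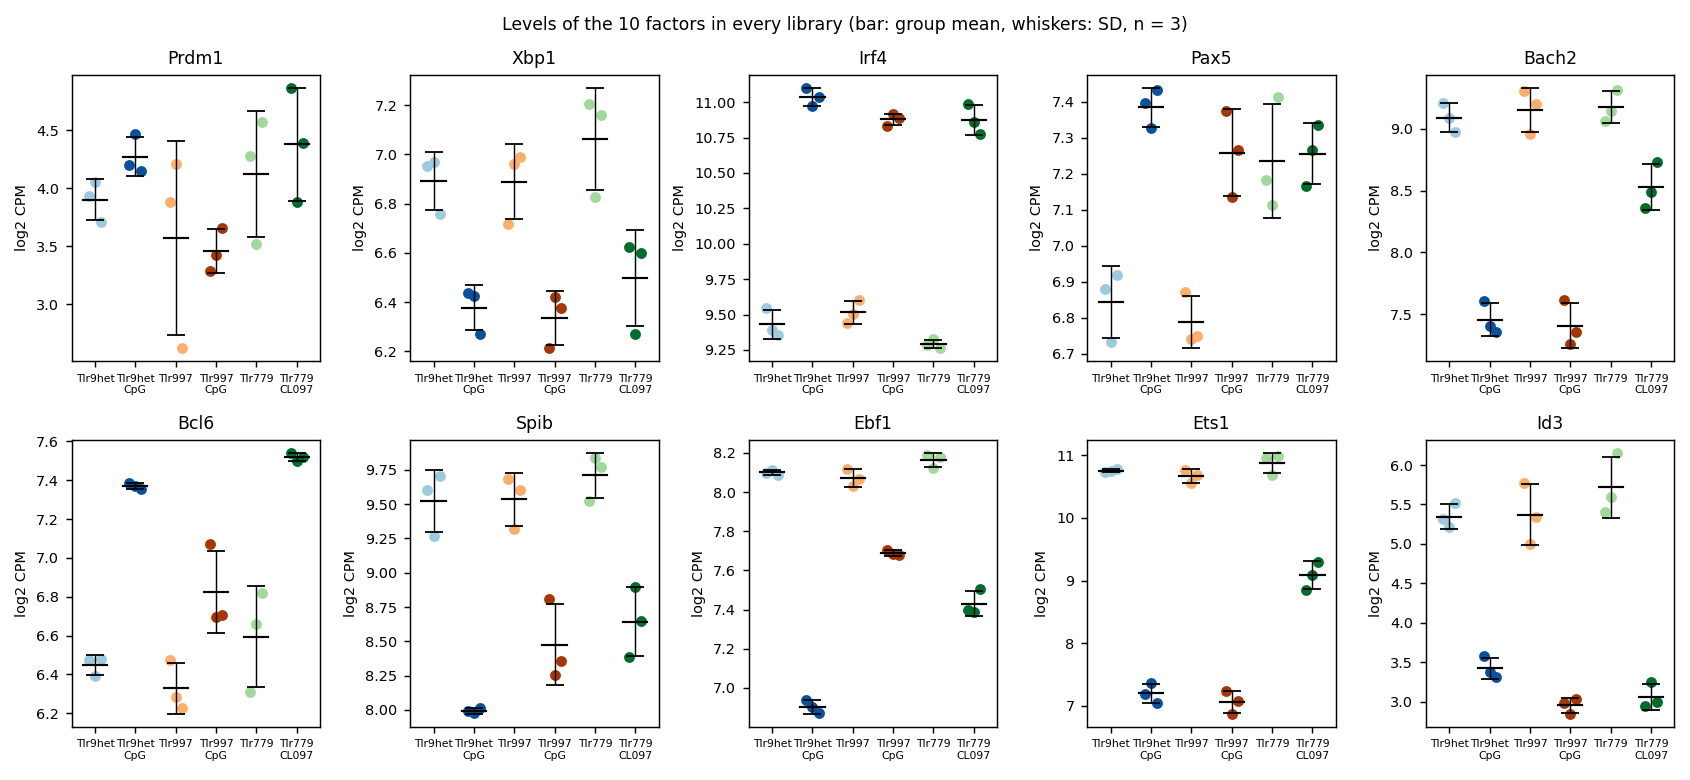
Level of each factor in log2 CPM (vertical axes, each with its own range) in the 18 libraries, by group; points are libraries, bars group means and whiskers the SD of 3 libraries. Irf4 is higher and Bach2, Spib, Ebf1, Ets1 and Id3 are lower with the agonist in every genotype, without overlap, while Prdm1 overlaps between the unstimulated and stimulated libraries of Tlr997 and of Tlr779.

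To ask how the drivers and the identity factors answered each agonist, stimulated libraries were compared with unstimulated ones of the same genotype. The drivers did not move together. Irf4 rose about 3-fold, Xbp1 fell to about 0.7 of its level and Prdm1 did not pass the test in any genotype. Of the 7 identity factors, Bach2, Spib, Ets1 and Id3 fell in all 3 genotypes, Ebf1 was lower in all 3 but fell by more than the fold threshold in only 2, and Bcl6 and Pax5 went the other way or did not change measurably. A gene was called at a limma adjusted p under 0.05 (Benjamini-Hochberg over all genes tested) with an absolute log2 fold change over 0.5. With CpG in Tlr9het, 3 of the 10 factors were called higher and 6 lower, where 29.7% and 28.2% of the 11494 genes tested were. In Tlr997, 1 was called higher and 5 lower, against 29.6% and 26% of all genes. With CL097 in Tlr779, 2 were called higher and 6 lower, against 22.7% and 23.6% of 11082 genes. Median log2 fold changes over all genes tested were 0.04, 0.07 and -0.02. The agonists thus changed a large share of all genes, against which the counts of factors are read. In these bulk samples, fewer cells of a type and less RNA per cell cannot be told apart.

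Irf4, the interferon regulatory factor on chromosome 13 (30749233 to 30766981, GRCm38), was the driver that changed most. In Tlr9het it was at 9.55, 9.39 and 9.35 log2 CPM without and 11.10, 10.97 and 11.03 with CpG. In Tlr997 it was at 9.44, 9.51 and 9.60 without and 10.83, 10.91 and 10.89 with CpG. In Tlr779 it was at 9.28, 9.32 and 9.27 without and 10.98, 10.86 and 10.77 with CL097. All 9 stimulated libraries were thus above all 9 unstimulated ones. The log2 fold changes were 1.61 (SE 0.06, adjusted p 8.1e-11), 1.36 (SE 0.06, adjusted p 4.9e-10) and 1.58 (SE 0.07, adjusted p 4.0e-06), which correspond to 3.04-, 2.57- and 2.99-fold.

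Xbp1 (chromosome 11, 5520641 to 5525993), the driver of the secretory program, moved against Irf4. Tlr9het libraries had 6.95, 6.97 and 6.76 log2 CPM without and 6.44, 6.42 and 6.27 with CpG. Tlr997 libraries had 6.72, 6.96 and 6.99 without and 6.21, 6.42 and 6.38 with CpG. For Tlr779 the values were 7.21, 6.83 and 7.16 without and 6.62, 6.27 and 6.60 with CL097. Stimulated libraries were below the unstimulated ones of their genotype without overlap. The log2 fold changes of -0.52 (SE 0.09, adjusted p 1.5e-04), -0.55 (SE 0.09, adjusted p 8.5e-05) and -0.57 (SE 0.13, adjusted p 0.0061) lay close to the fold threshold. Leaving out any of 6 single libraries took the absolute fold change under 0.5 in its genotype, with values between -0.49 and -0.45, namely replicates 1 and 2 of unstimulated Tlr9het, replicate 3 of Tlr9het with CpG, replicate 1 of Tlr997 with CpG, and, in Tlr779, replicate 1 of the unstimulated or replicate 2 of the CL097 libraries. In Tlr779 the adjusted p was 0.065 with no filter on low values and 0.062 with a pseudocount of 1 CPM. Gene-level values cannot separate spliced from unspliced Xbp1 mRNA, and only the spliced form encodes the active factor.

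Prdm1 (chromosome 10, 44437174 to 44528558), the gene of Blimp-1, had the lowest mean of the factors per kb and the largest SE of the 10 in each comparison. In Tlr9het it was at 3.94, 4.06 and 3.71 log2 CPM without and 4.20, 4.46 and 4.15 with CpG. The Tlr997 values were 3.88, 4.21 and 2.62 without and 3.28, 3.43 and 3.66 with CpG. Tlr779 libraries had 4.28, 3.52 and 4.57 without and 4.86, 3.88 and 4.39 with CL097. The Tlr9het groups did not overlap, while those of Tlr997 and Tlr779 did. In order of genotype, log2 fold changes were 0.37 (95% interval -0.28 to 1.03, adjusted p 0.28), -0.11 (-0.77 to 0.54, adjusted p 0.75) and 0.26 (-0.47 to 0.99, adjusted p 0.50). A doubling, 1 on the log2 scale, lay inside the interval in Tlr9het and just outside it in Tlr779.

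The low Prdm1 value of replicate 3 in unstimulated Tlr997 set the result for that genotype. Without this library, Prdm1 was lower with CpG in Tlr997, with a log2 fold change of -0.59 (adjusted p 0.0047), and with array quality weights it was lower as well, by -0.56 (adjusted p 0.026). In Tlr9het the fold change stayed under the threshold in each alternative tried, between 0.28 and 0.45, although the adjusted p was 0.018 without replicate 3 of unstimulated Tlr997. Macrophages and neutrophils can also express Prdm1. In unstimulated Tlr997, the 6 macrophage markers summed to 346, 215 and 131 CPM in replicates 1, 2 and 3, and the 4 neutrophil markers to 120, 86.9 and 27.1. Replicate 3 was thus lowest in Prdm1 and in both lists. With CpG the macrophage sums were 206, 131 and 96.6, while Prdm1 was highest in replicate 3. The 6 plasma cell markers, of which Prdm1 is 1, summed to 624, 727 and 577 without CpG and to 705, 760 and 654 with it. Within this sum, Slamf7 rose from a mean of 92.3 to 447 CPM. Igj (363 to 218), Mzb1 (131 to 20.1), Sdc1 (43.2 to 10.4) and Prdm1 (13.1 to 11.0) were lower with CpG. Tnfrsf17 had means of 0.096 and 0.196 CPM. The part of these cells in the Prdm1 values was not tested.

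Ets1 (chromosome 9, 32636241 to 32757820), an ETS-family factor whose loss in B cells is known to favor plasma cells, fell most of the 10 in the first arm. Tlr9het libraries had 10.74, 10.74 and 10.78 log2 CPM without and 7.18, 7.36 and 7.05 with CpG. In Tlr997 it was at 10.77, 10.55 and 10.69 without and 7.24, 6.88 and 7.08 with CpG. In Tlr779 it was at 10.95, 10.69 and 10.99 without and 8.85, 9.1 and 9.3 with CL097. The groups of each genotype lay far apart. The log2 fold changes were -3.56 (SE 0.09, adjusted p 3.9e-12), -3.61 (SE 0.09, adjusted p 4.5e-12) and -1.79 (SE 0.13, adjusted p 1.5e-05), and levels with the agonist were 8.49%, 8.21% and 28.8% of those without. The 2 arms used different agonists, genotypes and sexes, and their values stand side by side only.

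Id3 (chromosome 4, 136143822 to 136145392), the inhibitor of E proteins, fell in all 3 genotypes. It was at 5.31, 5.21 and 5.52 log2 CPM without and 3.57, 3.38 and 3.32 with CpG in Tlr9het. Tlr997 libraries had 5.77, 5.00 and 5.34 without and 2.98, 2.85 and 3.03 with CpG. For Tlr779 the values were 5.41, 5.60 and 6.15 without and 2.94, 3.25 and 3.00 with CL097. No stimulated library reached an unstimulated one. On the log2 scale, the changes were -1.92 (SE 0.16, adjusted p 1.5e-07), -2.41 (SE 0.16, adjusted p 1.7e-08) and -2.66 (SE 0.20, adjusted p 1.7e-05).

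Bach2 (chromosome 4, 32238413 to 32586109), a repressor of Prdm1, also fell. In Tlr9het it was at 9.21, 9.08 and 8.98 log2 CPM without and 7.61, 7.41 and 7.35 with CpG. The Tlr997 values were 9.31, 8.95 and 9.2 without and 7.61, 7.26 and 7.35 with CpG. Tlr779 libraries had 9.06, 9.14 and 9.31 without and 8.36, 8.49 and 8.73 with CL097. The groups did not overlap within a genotype. In order of genotype, log2 fold changes were -1.63 (SE 0.11, adjusted p 1.1e-08), -1.75 (SE 0.11, adjusted p 6.9e-09) and -0.65 (SE 0.11, adjusted p 0.0012).

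Spib (chromosome 7, 44525995 to 44532087), an ETS-family relative of PU.1 that restrains plasma cell differentiation, was at 9.60, 9.27 and 9.70 log2 CPM without and 7.99, 7.98 and 8.02 with CpG in Tlr9het. In Tlr997 it was at 9.68, 9.32 and 9.60 without and 8.81, 8.26 and 8.36 with CpG. In Tlr779 it was at 9.52, 9.84 and 9.77 without and 8.39, 8.89 and 8.65 with CL097. Every stimulated library was below every unstimulated one. The log2 fold changes were -1.53 (SE 0.14, adjusted p 3.3e-07), -1.06 (SE 0.14, adjusted p 1.4e-05) and -1.07 (SE 0.14, adjusted p 2.6e-04).

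Ebf1 (chromosome 11, 44618100 to 45008096), the early B-cell factor, had the smallest SE of the factors in the first arm. Tlr9het libraries had 8.10, 8.11 and 8.09 log2 CPM without and 6.94, 6.90 and 6.87 with CpG. Tlr997 libraries had 8.12, 8.03 and 8.07 without and 7.70, 7.68 and 7.68 with CpG. For Tlr779 the values were 8.19, 8.12 and 8.18 without and 7.40, 7.39 and 7.51 with CL097. Unstimulated libraries of the first arm were alike, and with CpG the genotypes parted. On the log2 scale, the changes were -1.20 (SE 0.04, adjusted p 4.4e-11), -0.38 (SE 0.04, adjusted p 3.5e-06) and -0.73 (SE 0.06, adjusted p 3.3e-05). The decrease in Tlr997 passed the adjusted p but not the fold threshold.

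Bcl6 (chromosome 16, 23965050 to 23988866), the repressor that holds germinal center B cells, was higher with each agonist. It was at 6.48, 6.39 and 6.48 log2 CPM without and 7.39, 7.37 and 7.36 with CpG in Tlr9het. The Tlr997 values were 6.48, 6.28 and 6.23 without and 7.07, 6.70 and 6.71 with CpG. Tlr779 libraries had 6.31, 6.66 and 6.82 without and 7.54, 7.50 and 7.52 with CL097. All 3 stimulated groups were above their unstimulated libraries. In order of genotype, log2 fold changes were 0.92 (SE 0.09, adjusted p 8.8e-07), 0.50 (SE 0.09, adjusted p 3.3e-04) and 0.93 (SE 0.12, adjusted p 3.1e-04). In Tlr997 the value was just under the fold threshold of 0.5, and it passed when replicate 1 of the unstimulated or replicate 2 or 3 of the CpG libraries was left out, at 0.57, 0.56 and 0.55.

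Pax5 (chromosome 4, 44524748 to 44710694), which holds B-cell commitment, was higher with CpG, called in Tlr9het alone, and did not change measurably with CL097. In Tlr9het it was at 6.88, 6.73 and 6.92 log2 CPM without and 7.40, 7.33 and 7.43 with CpG. In Tlr997 it was at 6.87, 6.74 and 6.75 without and 7.37, 7.13 and 7.27 with CpG. In Tlr779 it was at 7.18, 7.11 and 7.41 without and 7.17, 7.26 and 7.34 with CL097. Both CpG groups were above their unstimulated libraries, and the Tlr779 groups overlapped. The log2 fold changes were 0.54 (SE 0.07, adjusted p 1.3e-05), 0.47 (SE 0.07, adjusted p 5.2e-05) and 0.02 (95% interval -0.19 to 0.23, adjusted p 0.86). The first was 0.49 without replicate 2 of unstimulated Tlr9het, under the fold threshold. In the Tlr997 fit, the second passed the threshold, at 0.51 and 0.53, without replicate 1 of the unstimulated or replicate 2 of the CpG libraries. Pax5 overlaps 2 other listed genes, Mir5120 on the same strand and 5730488B01Rik on the other, and the strand setting of the counting is not given in the sources used here.

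**Figure D2:**
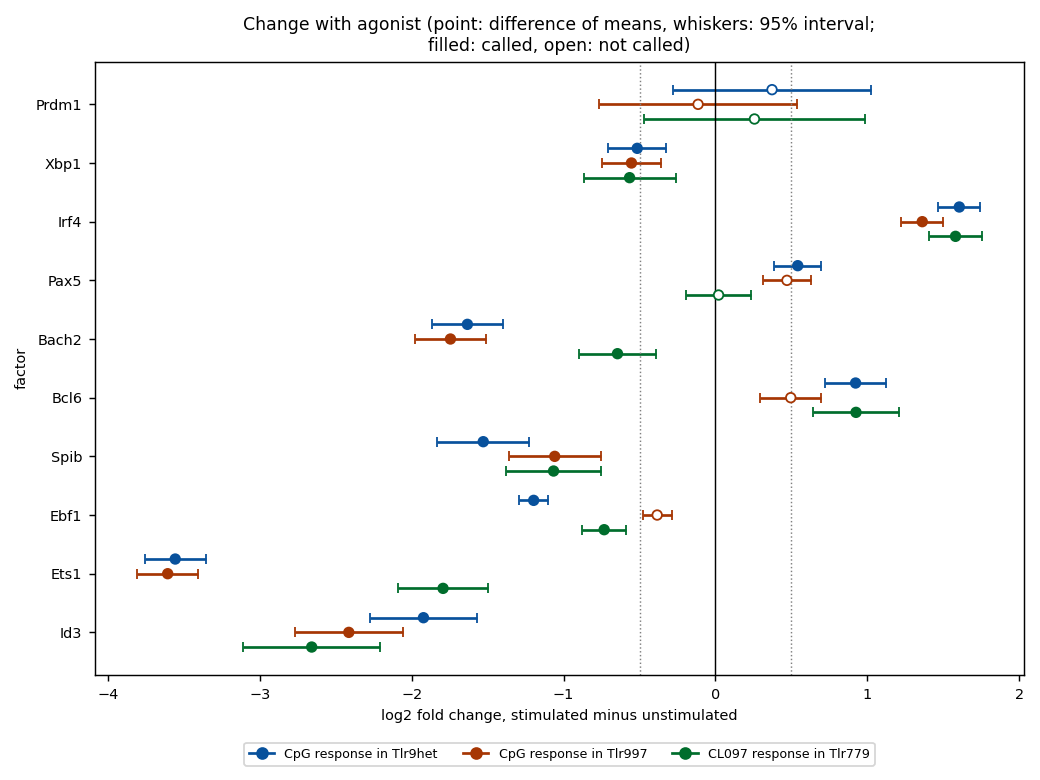
Log2 fold change of each factor (horizontal axis) with CpG in Tlr9het and Tlr997 and with CL097 in Tlr779, with 95% intervals from limma; filled points were called, open points not, and dotted lines mark 0.5 and -0.5. Irf4 lies between 1.36 and 1.61 and Ets1 between -3.61 and -1.79, while all 3 intervals of Prdm1 include 0.

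Differences within a library set pairs of factors against each other without a comparison of libraries, as a description. They are in CPM without length, so their change between groups is read and not their level. Irf4 minus Bach2 was 0.34 ± 0.03 log2 units in unstimulated Tlr9het and 3.58 ± 0.09 with CpG (SD, n = 3 each). In Tlr997 it went from 0.36 ± 0.21 to 3.47 ± 0.22, and in Tlr779 from 0.12 ± 0.14 to 2.34 ± 0.29 (SD, n = 3 each). Irf4 and Bach2 were thus near each other in CPM at rest and farther apart after 4 h with the agonist. Per kb, Irf4 was above Bach2 already at rest, with means of 7.14 and 5.78 in Tlr9het. Prdm1 minus Bach2 moved from -5.19 ± 0.14 to -3.18 ± 0.23 for Tlr9het, from -5.58 ± 0.93 to -3.95 ± 0.33 in Tlr997 and from -5.05 ± 0.50 to -4.15 ± 0.58 in Tlr779 (SD, n = 3 each). Bach2 was called lower in each genotype and Prdm1 was called in none, so this shift is no separate evidence of a rise in Prdm1. Prdm1 minus Bcl6 was -2.55 ± 0.22 without and -3.10 ± 0.17 with CpG in Tlr9het, without overlap (SD, n = 3 each). In Tlr997 it was -2.76 ± 0.78 and -3.37 ± 0.38, and in Tlr779 -2.47 ± 0.59 and -3.14 ± 0.47, both with overlapping libraries (SD, n = 3 each). Ebf1 minus Bcl6 turned negative, from 1.65 ± 0.06 to -0.47 ± 0.02 for Tlr9het and from 1.57 ± 0.28 to -0.09 ± 0.07 for Tlr779, while in Tlr997 it stayed above 0 in all 6 libraries, at 1.74 ± 0.10 and 0.86 ± 0.20 (SD, n = 3 each). Both are identity factors, and both were called between the genotypes with CpG, so this pair is no separate evidence of that difference.

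**Figure D3:**
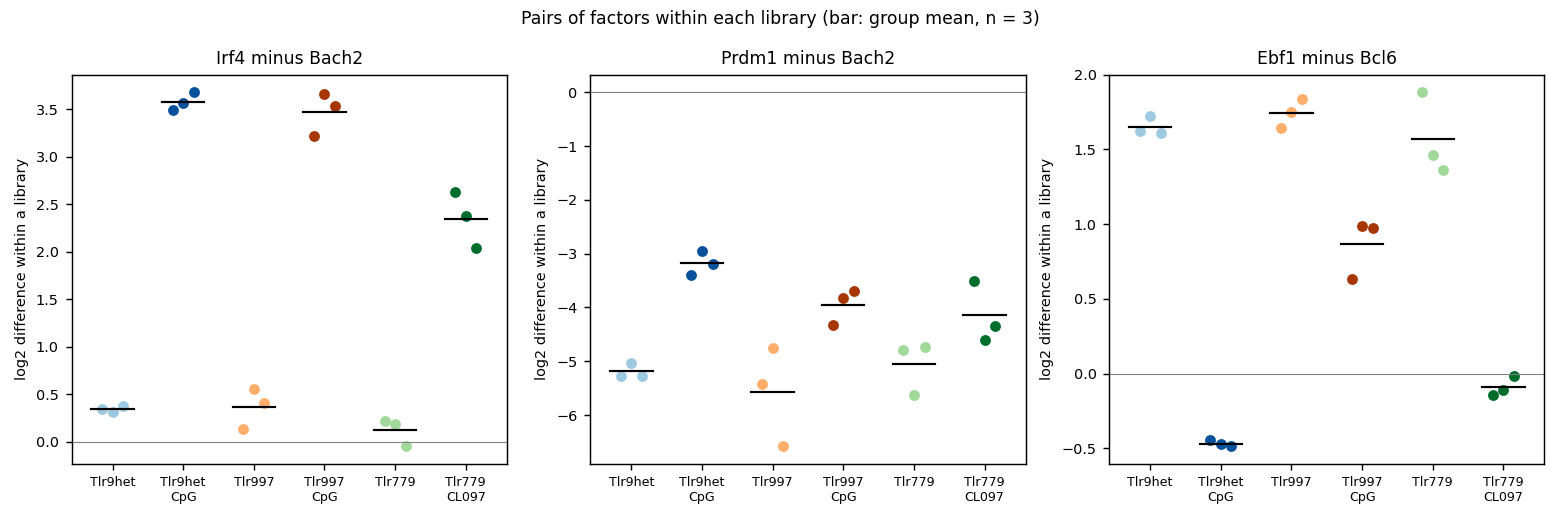
Differences in log2 CPM between 2 factors of the same library (vertical axes) by group; points are libraries and bars means of 3. Irf4 minus Bach2 rises from near 0 to between 2.04 and 3.68 in the 9 stimulated libraries, and Ebf1 minus Bcl6 falls below 0 with the agonist in Tlr9het and Tlr779 and not in Tlr997.

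Whether the TIR domain changed the factors was tested first in unstimulated cells. Of the 10, 0 were called, with 0.0174% of all genes called higher and 0% lower in Tlr997. By limma, 0 of the 10 had even an unadjusted p under 0.05, as 1237 genes did, and for each factor the libraries of the genotypes overlapped. The differences ranged from -0.33 (95% interval -0.98 to 0.32) for Prdm1 to 0.09 (-0.05 to 0.22) for Irf4. For Xbp1, Pax5, Ebf1, Ets1, Bcl6 and Bach2 the intervals lay between -0.32 and 0.30.

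With CpG, 1 factor was called higher in Tlr997 than in Tlr9het and 1 lower, where 1.25% and 1.47% of all genes were. Ebf1 was higher in Tlr997, at 7.69 ± 0.01 against 6.90 ± 0.04 log2 CPM (SD, n = 3 each), a difference of 0.79 (SE 0.04, 95% interval 0.69 to 0.88, adjusted p 7.9e-07) or 1.72-fold. Bcl6 was lower, at 6.83 ± 0.21 against 7.37 ± 0.02 (SD, n = 3 each), a difference of -0.55 (SE 0.09, adjusted p 0.0041). Both were without overlap between libraries. Leaving out replicate 2 or 3 of Tlr997 with CpG took Bcl6 under the fold threshold, at -0.48 and -0.49. Spib was 0.48 higher in Tlr997 (95% interval 0.18 to 0.78, adjusted p 0.067) and Id3 0.47 lower (difference -0.47, -0.82 to -0.11, adjusted p 0.13), neither called although their libraries did not overlap. Without replicate 2 of Tlr997 with CpG, Spib was called, at 0.59 (adjusted p 0.0499).

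With CpG, Prdm1 had a mean of 3.46 ± 0.19 log2 CPM for Tlr997 against 4.27 ± 0.17 for Tlr9het (SD, n = 3 each), without overlap, a difference of -0.82 (95% interval -1.47 to -0.16, adjusted p 0.16) that was not called. The 4 groups shared 1 estimate of the spread, which holds the wide unstimulated Tlr997 libraries. Without replicate 3 of unstimulated Tlr997, which is in neither group compared, the same difference had an adjusted p of 0.0039. With only the 6 CpG libraries in the model the adjusted p was 0.0057, and with array quality weights the difference was -0.85 (adjusted p 0.0069). The macrophage markers summed to 168, 153 and 133 CPM in Tlr9het and to 206, 131 and 96.6 in Tlr997 with CpG, with overlap. Irf4 was slightly lower in Tlr997 without overlap, with a difference of -0.16 (95% interval -0.30 to -0.02, limma adjusted p 0.19) that was not called. The remaining factors had overlapping libraries. Their differences were -0.13 for Ets1 (-0.33 to 0.07), -0.13 for Pax5 (-0.28 to 0.03), -0.05 for Bach2 (-0.28 to 0.18) and -0.04 for Xbp1 (-0.23 to 0.15).

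A difference with CpG does not show by itself that the responses differed, so the CpG response of Tlr997 minus that of Tlr9het was tested. Of the 10 factors, 1 was called higher and 0 lower, against 0.687% and 0.861% of all genes. This was Ebf1, whose decrease was smaller in Tlr997, with a difference of 0.81 (SE 0.06, 95% interval 0.68 to 0.95, adjusted p 3.8e-05). It fell by 1.16, 1.21 and 1.22 between libraries of the same number in Tlr9het and by 0.41, 0.35 and 0.39 in Tlr997. In Tlr997 the numbers were not taken as pairs. For Bcl6 the difference was -0.43 (95% interval -0.71 to -0.14, adjusted p 0.13), and it was called only without replicate 1 of Tlr997 with CpG, at -0.55 (adjusted p 0.018). For Spib it was 0.47 (0.04 to 0.90, adjusted p 0.26), for Id3 -0.49 (-0.99 to 0.01, adjusted p 0.32) and for Irf4 -0.24 (-0.44 to -0.05, adjusted p 0.20). For Prdm1 it was -0.49 (-1.41 to 0.44, adjusted p 0.63), and -0.96 (adjusted p 0.030) without replicate 3 of unstimulated Tlr997. For Ets1, Xbp1, Pax5 and Bach2 it lay between -0.11 and -0.04, with intervals between -0.44 and 0.23.

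**Figure D4:**
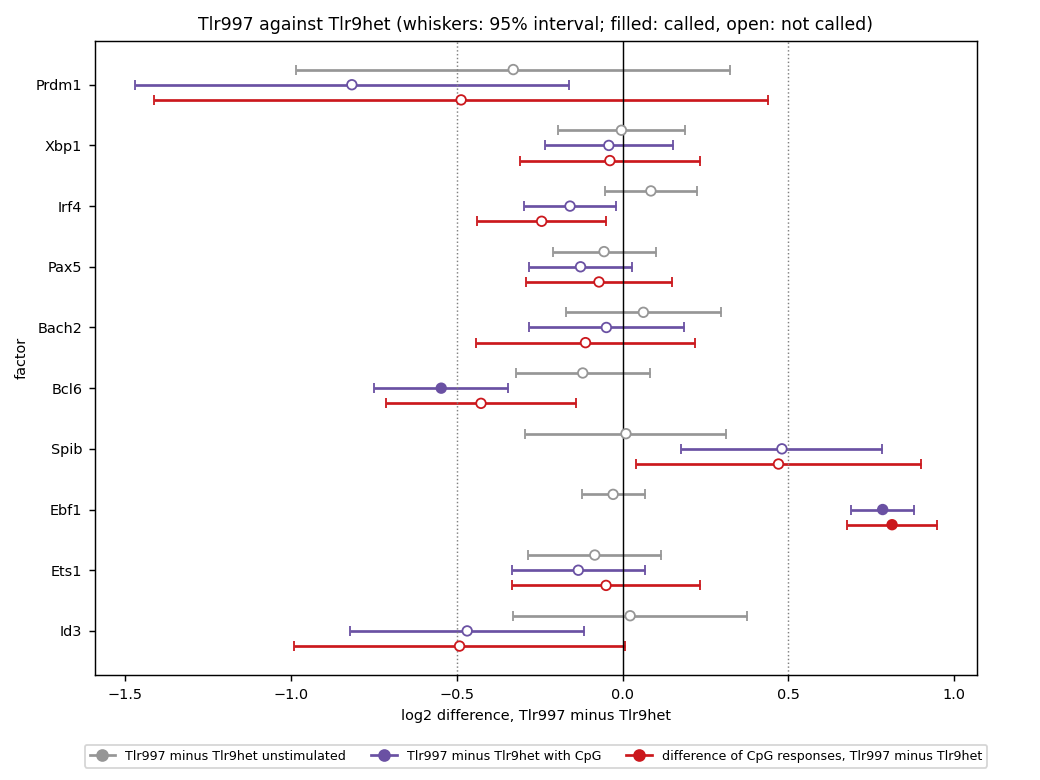
Difference between Tlr997 and Tlr9het on the log2 scale (horizontal axis) for each factor, unstimulated, with CpG, and as the difference of the CpG responses, with 95% intervals; filled points were called and dotted lines mark 0.5 and -0.5. Ebf1 is at 0.79 with CpG and 0.81 for the difference of responses, and the intervals of Prdm1 are the widest.

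The other genes around the factors were taken from 5 lists. Of all genes, 29.7% and 28.2% were called higher and lower in Tlr9het, 29.6% and 26% in Tlr997 and 22.7% and 23.6% in Tlr779. Between the genotypes with CpG the shares were 1.25% and 1.47%, and for the difference of responses 0.687% and 0.861%. Counts near these shares are not read as a change of a list. Of 23 other B-lineage factors, all tested, 4 were called higher and 15 lower with CpG in Tlr9het (their median was -0.88 on the log2 scale), 4 and 14 in Tlr997 (-0.87) and 3 and 14 with CL097 in Tlr779 (-0.69). The lowest were Mef2c (-3.43) and Ikzf3 (-3.05), which encodes Aiolos, in Tlr9het, Pou2af1 (-3.14), the B-cell coactivator OBF-1, and Mef2c (-3.05) in Tlr997, and Ikzf3 (-1.95) and Pou2af1 (-1.70) in Tlr779. The highest was Id2, an inhibitor of E proteins like Id3, at 1.63, 1.41 and 1.56, so that Id2 rose while Id3 fell. It was followed by Irf8 (0.93) in Tlr9het and by Pou2f2 (1.25 and 1.11), which encodes Oct2, in Tlr997 and Tlr779. Between the genotypes with CpG, 2 were higher in Tlr997, Tcf4 (0.62) and Bcl11a (0.53), and 4 lower, of which Pou2af1 (-0.73) and Runx1 (-0.67) were lowest. Runx1, like Bcl6 and Ets1, was among the genes that the study named from these samples, so that its change is not independent evidence.

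Of 14 partners and cofactors of the factors, 7 were called higher and 3 lower with CpG in Tlr9het (median 0.41), 5 and 2 in Tlr997 (0.37), and 6 and 0 with CL097 in Tlr779 (0.26). Batf, the AP-1 protein that binds DNA together with Irf4, rose most, from 3.40 ± 0.14 to 8.86 ± 0.14 log2 CPM in Tlr9het, from 3.71 ± 0.23 to 8.35 ± 0.08 in Tlr997 and from 3.34 ± 0.07 to 7.81 ± 0.37 in Tlr779 (SD, n = 3 each). The next were Mafg (1.63), a small Maf partner of Bach2, in Tlr9het, Prmt5 (1.62), a methyltransferase, in Tlr997, and Mafg (1.5) in Tlr779. The lowest were the methyltransferase gene Ehmt2 (-1.23 and -0.84) and Bach1 (-0.86 and -1.01), the relative of Bach2, in Tlr9het and Tlr997. With CpG, Batf differed between the genotypes by -0.52 (Tlr997 minus Tlr9het), and the difference of responses was -0.82. Of the partners, 0 were called in either comparison without replicate 3 of Tlr9het with CpG, and 0 with no filter, the pseudocount or no trend. Without replicate 2 of Tlr997 with CpG, 0 were called between the genotypes with CpG.

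Of 16 genes that Pax5 and Ebf1 are known to activate, 0 were called higher and 13 lower with CpG in Tlr9het (median -2.46), 1 and 12 in Tlr997 (-2.56), and 0 and 12 with CL097 in Tlr779 (-1.56). Fcrla, an Fc receptor-like gene, fell most in each (-4.61, -4.30 and -2.59), followed by Cd55 (-4.02 and -4.06), a complement regulator, with CpG and by Ralgps2 (-2.17) with CL097. The smallest decreases called with CpG in Tlr997 and with CL097 in Tlr779 were those of Ciita (-0.58) and Blk (-0.59). In Tlr997, Fcer2a (0.58), the gene of CD23, was the 1 called higher. Most genes of this list thus fell while Pax5 mRNA did not fall and Ebf1 mRNA was lower. With CpG, 3 of the 16 were higher in Tlr997 than in Tlr9het and 0 lower, Cd79b (1.04), Cr2 (0.81) and Cd22 (0.58), a subunit of the B-cell receptor, the complement receptor CD21 and an inhibitory receptor. This count was 1 with no filter on low values, with the pseudocount, or without replicate 1 of Tlr9het or replicate 3 of Tlr997 with CpG. For the difference of responses 1 was called, Cd79b (1.14), and 4 and 5 were with the replicate number as a block over the arm or within each genotype, with all of them higher. It was 2 and 3 without replicate 1 or 3 of unstimulated Tlr997, and 0 without replicate 1 of unstimulated Tlr9het, without any 1 of the 3 Tlr9het libraries with CpG, and with no filter, the pseudocount or no trend. The 6 B-cell markers, of which 5 are in this list, summed to between 5973 and 6621 CPM without and 1748 and 1838 with CpG in Tlr9het, and to between 5735 and 6365 and 2714 and 3291 in Tlr997. In Tlr779 they summed to between 5866 and 7498 without and 2606 and 3274 with CL097.

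Of 19 genes of antibody-secreting cells, 17 were tested in the first arm and 16 in the second. With CpG, 3 were called higher and 8 lower in Tlr9het (median -0.38) and 3 and 9 in Tlr997 (-0.64), and with CL097 2 were called higher and 7 lower (-0.25). Slamf7, a surface receptor of plasma cells and activated cells, rose most (2.52, 2.28 and 2.12), then Zbtb32 (1.38, 1.68 and 2.05), the gene of a transcriptional repressor. Mzb1 (-2.76 and -2.70), a chaperone of immunoglobulin assembly, and Cd93 (-1.99 and -2.40) fell most with CpG, and Sdc1 (-2.49), the gene of CD138, and Creb3l2 (-1.93) with CL097. Tnfrsf17, the receptor BCMA of plasma cells, was under 0 log2 CPM in all 18 libraries. Igj, the joining chain, was between 7.34 and 9.67. Between the genotypes with CpG, 0 of the 17 were called by limma (3 had an unadjusted p under 0.05, as 2187 of all 11494 genes did), and for the difference of responses 1 was, Glcci1 (-0.54), which was not called when any of 8 single libraries was left out.

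Of 18 Xbp1 target genes of the endoplasmic reticulum, 6 were called higher and 3 lower with CpG in Tlr9het (median 0.44) and in Tlr997 (0.23), and 4 and 5 of the 17 tested with CL097 in Tlr779 (0.07). The co-chaperone gene Dnajb9 (1.77) and Sdf2l1 (1.42) rose most in Tlr9het. Dnajb9 (1.56) also rose in Tlr997, where Srp54a, with the larger value of 2.65, was at most 0.03 log2 CPM in all 6 libraries and belongs to a family of near-identical copies, which makes it uncertain. Srp54a was over 0 log2 CPM in CpG libraries alone and passed the filter through them, and without it 6 and 3 of 17 were called in Tlr9het (median 0.44) and 5 and 3 in Tlr997 (0.20). In Tlr779 the highest were Sdf2l1 (0.90) and Dnajb9 (0.86). Syvn1, an E3 ligase of protein degradation, fell most in each (-1.48, -1.19 and -1.19), with Pdia4 (-0.84 in both) next in Tlr9het and Tlr997 and Herpud1 (-0.82) in Tlr779. Of all genes, 29.7% and 28.2% were called higher and lower in Tlr9het, 29.6% and 26% in Tlr997 and 22.7% and 23.6% in Tlr779, so these counts are not read as a change of the list. Between the genotypes 0 of the 18 were called by limma with CpG (5 with an unadjusted p under 0.05, as 2187 of all 11494 genes) and 0 for the difference of responses (6, and 1839 of all 11494 genes).

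**Figure D5:**
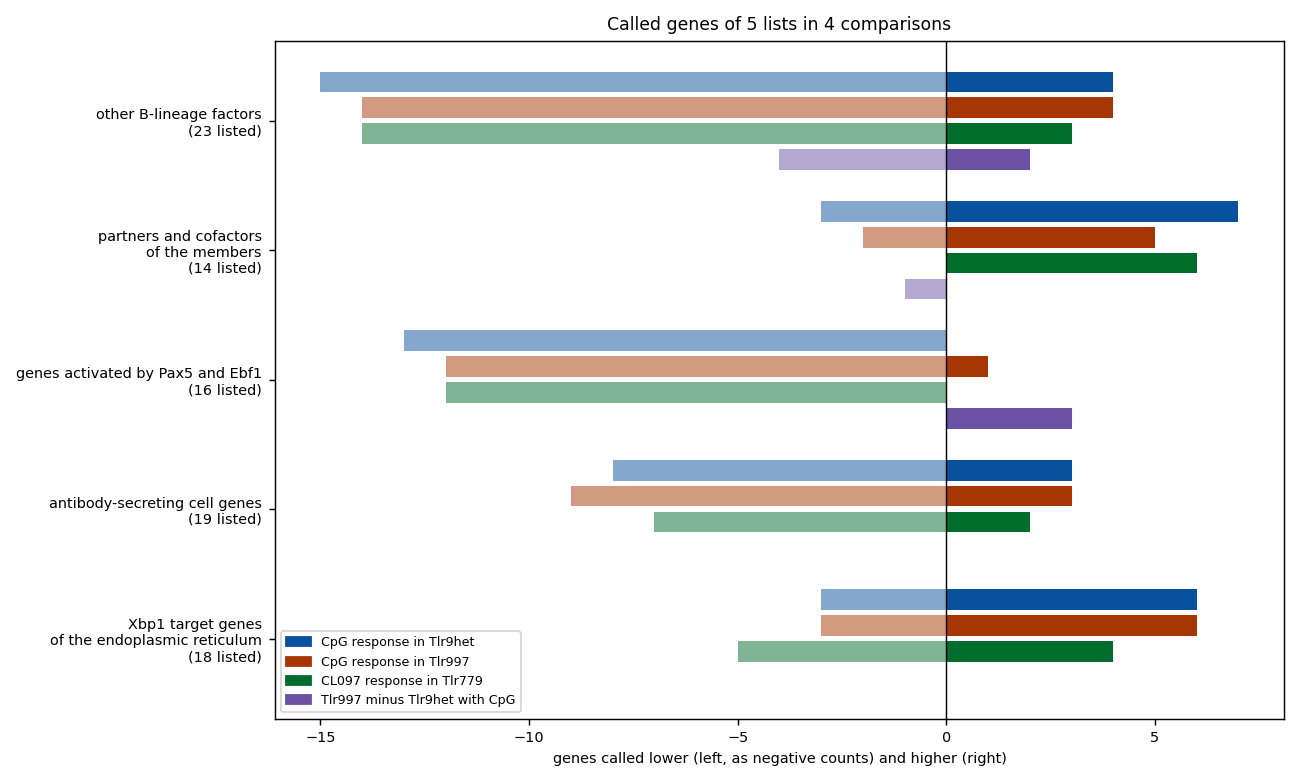
Number of called genes (horizontal axis, lower to the left as negative counts and higher to the right) of 5 gene lists in the 3 responses and in Tlr997 against Tlr9het with CpG. Genes activated by Pax5 and Ebf1 fell in the responses (13, 12 and 12 of 16), while the 3 called between the genotypes were higher in Tlr997.

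The genes most like Prdm1 over the 12 libraries of the first arm, which share 4 groups, were Usp6nl, Bend4 and Smtn, with Pearson's r of 0.88, 0.87 and 0.87, and 0 genes reached 0.9. For Bach2, Gse1 and Pik3r1 were among the most alike, with an r of 0.997 and 0.996, and 2543 genes were over 0.9. A profile like that of Bach2, high in both unstimulated groups and low in both CpG groups, was thus common. Prdm1 had the largest SE of the factors, which limits its r with any gene. Whether its profile is rare can therefore not be read from these values.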

How the data were processed

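The 18 libraries were TruSeq mRNA libraries of bead-purified splenic B cells. Per the submitters' processing notes and the study's methods, reads were checked with FastQC 0.11.7, trimmed with Trim Galore 0.6.5, aligned with STAR 2.6.1a to mm10 and counted per gene with featureCounts (Subread 2.0.1). The authors then applied quantile normalization and voom in limma, and the deposited values are log2 CPM, 1 file per library. They hold no counts, so the depth per library is unknown and no counting interval could be given. Whether the counting used strand is not given in the sources used here.

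From these values, genes with at least 3 fitted libraries over 0 log2 CPM were tested with limma 3.58.1 in R 4.3.3 (a mean per group, empirical Bayes with a trend on the mean, Benjamini-Hochberg over all genes tested). Calls needed an adjusted p below 0.05 together with a log2 fold change beyond 0.5 in either direction. The 12 libraries of the Tlr7-/- arm shared 1 model and the 6 Tlr779 libraries another. The fits were tested on simulated data with known changes. No 2 files held identical values (0 pairs). In the Tlr7-/- arm, 6614 genes were below -4 in all 12 libraries, of which 6306 had 1 value per replicate number and 822 differed between numbers. No step of the sources used here describes this. Whether a term for the replicate number had been subtracted was not tested, and if so the spread between libraries of that arm is understated.

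The replicate number was checked as a pairing through the correlation of deviations from the group means between unstimulated and stimulated libraries of the same number. It was 0.51, 0.29 and 0.51 in Tlr9het and 0.25, 0.49 and 0.33 in Tlr779, taken as pairs, and 0.37, 0.08 and 0.02 in Tlr997, not taken as pairs. Fits with the number as a block were alternatives, as were other filters, a pseudocount of 1 CPM, a fold change threshold of 1, other variance settings, other sets of libraries, array quality weights and leaving out each library. An alternative with no fold change threshold was added after seeing the data.

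The factors and the gene lists were chosen with earlier results of these data known, and Bcl6, Ets1 and Runx1 are among the genes that the study named from these samples. From each list, the text names the called genes with the largest and smallest log2 fold changes (up to 2 at each end, fewer where they repeat), and for Prdm1 and Bach2 the 3 genes with the highest Pearson's r. Some genes that this rule selects are not reported here. Other genes named were chosen after their values were seen. Marker sums add CPM over a list, as far as the symbols were found in the files. Promoters and positions are from RefSeq on GRCm38.p6, the release behind mm10, and overlaps of genes from the GENCODE annotation.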

Additional observations from a re-analysis of the deposited data

Results flagged for a closer look

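Results flagged here are those whose CpG response differed between the genotypes by the interaction test in limma (response in Tlr997 minus response in Tlr9het, log2 scale). Of the factors, Ebf1 was one, with 0.81, a smaller decrease in Tlr997. Of the genes listed around the factors, Cd79b, a subunit of the B-cell receptor, was flagged with 1.14 and the E protein gene Tcf4 with 0.63. On the negative side, Batf had -0.82, Runx1 -0.68, Pou2af1 -0.62, Fli1 -0.61, Foxo1 -0.57 and Glcci1 -0.54. Their adjusted p-values ranged from 3.8e-05 for Ebf1 to 0.043 for Runx1. Of these, the rise of Batf and the decreases of Cd79b, Tcf4 and Ebf1 were smaller in Tlr997, and the decreases of Runx1, Pou2af1, Fli1, Foxo1 and Glcci1 were larger there. Of the 23 other B-lineage factors, 5 were called here, and 2 without replicate 1 of unstimulated Tlr9het, 1 with no filter on low values and 2 with the pseudocount or no trend. With any 1 of 5 other libraries left out, namely replicate 2 of unstimulated Tlr9het, the 3 Tlr9het libraries with CpG or replicate 3 of Tlr997 with CpG, 3 were called.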

How the results depend on the processing

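The depth of the libraries is unknown, 3 libraries per group limit every test, and Tlr997 and Tlr9het are compared on titles that the protocol contradicts, though the Tlr9het libraries answered CpG; values are after the authors' quantile normalization. Calls of Irf4, Bach2, Spib, Ets1 and Id3 as changed with each agonist, and of Ebf1 in both genotype comparisons with CpG, held under the alternatives tried, except that a fold change threshold of 1 took out Bach2 in Tlr779 and Ebf1 between the genotypes. With that threshold, 4059, 3768 and 2581 genes were called with CpG in Tlr9het, with CpG in Tlr997 and with CL097 (4 factors in the last), 74 between the genotypes with CpG (0 factors) and 46 for the difference of responses (0 factors). For Tlr997 against Tlr9het with CpG, 313 genes were called in all, against 187 with no filter, 176 with the pseudocount, 680 with no fold change threshold and 485 with array quality weights. Unstimulated, 2 genes were called, and 0 with no filter, with the pseudocount or with only the groups compared. For the difference of responses, 178 genes were called, against 78 with no filter, 79 with the pseudocount, 98 with no trend and 377 with array quality weights. With a replicate block over the arm, 6690, 6455, 5384, 336, 2 and 216 genes were called in the 6 comparisons, and with a replicate block within genotype 329 for the difference; the latter could not be fitted for the comparisons of genotypes, and neither block changed the call of a factor. With 1 library left out, 1 to 3 factors were called between the genotypes with CpG and 1 to 2 for the difference; all genes called ranged from 187 (without replicate 1 of Tlr9het with CpG) to 410 (without replicate 3 of unstimulated Tlr997) with CpG, from 2 to 4 (without replicate 2 or 3 of unstimulated Tlr997) unstimulated and from 87 (without replicate 1 of unstimulated Tlr9het) to 295 (without replicate 3 of unstimulated Tlr997) for the difference, with 90 to 101 without any 1 of the 3 Tlr9het libraries with CpG. Values near 0 that turned in sign with 1 library left out were Prdm1 with CpG in Tlr997 (-0.59 to 0.20), Prdm1 (-0.045 to 0.51) and Pax5 (-0.041 to 0.11) with CL097, Xbp1 (-0.094 to 0.021) and Bach2 (-0.15 to 0.026) between the genotypes with CpG, Prdm1 (-0.65 to 0.15), Xbp1 (-0.071 to 0.084), Bach2 (-0.014 to 0.16), Spib (-0.12 to 0.12) and Id3 (-0.18 to 0.21) unstimulated, and Xbp1 (-0.12 to 0.030) and Ets1 (-0.14 to 0.044) for the difference. With array quality weights the unstimulated differences were 0.065 for Prdm1, -0.039 for Bach2, -0.026 for Spib and -0.083 for Id3. Where these values moved, the cause was not tested.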
